A study of Mus musculus with 4 samples.

Results

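Cytochrome P450 genes of families Cyp1 to Cyp4 were followed in lung RNA. They were chosen by symbol alone, as every row whose symbol holds Cyp, a family number from 1 to 4, a single subfamily letter and a gene number, with a value above 0 in at least 1 library. There were 58 such genes of 85 matching symbols and of 23282 rows in all, and the remaining 27 symbols were listed at 0 in every library. The 58 comprised 3 genes of family Cyp1, 33 of Cyp2, 6 of Cyp3 and 16 of Cyp4.

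RNA came from lungs of CDF1 mice in 4 groups that crossed treadmill exercise (E) with tumor (T). The groups were resting control, E(-)T(-), exercised control, E(+)T(-), resting tumor, E(-)T(+), and exercised tumor, E(+)T(+), with tumors seeded by CT26 colorectal carcinoma cells injected into the tail vein. The labels give the age as postnatal day 28, which may be the age at purchase, and 10 mice per group. Each group is 1 library. The study names a single representative animal per group for muscle and treats the lungs similarly, which points to 1 mouse per library without stating it for lung, so no difference between groups has a replicate check and no p-value is given. Where 4 values stand together they follow this order of the groups. The lungs of tumor-bearing mice hold tumor cells beside host cells, and in such bulk RNA fewer cells of a type and less RNA per cell cannot be told apart.

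P450 enzymes are heme proteins of the endoplasmic reticulum that use electrons from P450 reductase to add oxygen to foreign compounds, fatty acids and steroids. Families Cyp1 to Cyp3 carry most of the first step of drug and toxicant metabolism, and many of their genes are induced by the receptors Ahr, Car and Pxr. Family Cyp4 hydroxylates fatty acids and eicosanoids. In the mouse lung the club cells of the small airways are the best known site of these enzymes, and Cyp2f2, which turns naphthalene into a toxic epoxide there, is a classical club cell gene.

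The DNA just upstream of 4 members is shown because they stand for the main patterns described here: Cyp2f2 and Cyp2b10, which were low in E(-)T(+), Cyp2a5, which was not, and Cyp1b1, which was high in both tumor libraries. Each run is the 250 bases before the RefSeq start on GRCm38.p6, read 5′ to 3′ on the strand of the gene. The positions are chr7:27119705-27119954 on the plus strand for Cyp2f2, chr7:25897408-25897657 on the plus strand for Cyp2b10, chr7:26835089-26835338 on the plus strand for Cyp2a5 and chr17:79715062-79715311 on the minus strand for Cyp1b1. Capitals mark GCGTG, the core bound by Ahr with its partner Arnt, on either strand (its reverse complement reads CACGC), and TATAAA, the letters of a TATA box when they lie close upstream on the gene's own strand. The GENCODE M21 gene start lies inside the window of Cyp2f2, Cyp2b10 and Cyp2a5, and next to the window of Cyp1b1.
Cyp2f2: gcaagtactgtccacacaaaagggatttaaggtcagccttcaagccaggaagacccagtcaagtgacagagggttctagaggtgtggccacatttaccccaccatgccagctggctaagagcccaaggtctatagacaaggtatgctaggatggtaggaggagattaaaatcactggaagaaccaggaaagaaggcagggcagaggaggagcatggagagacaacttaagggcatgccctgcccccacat
Cyp2b10: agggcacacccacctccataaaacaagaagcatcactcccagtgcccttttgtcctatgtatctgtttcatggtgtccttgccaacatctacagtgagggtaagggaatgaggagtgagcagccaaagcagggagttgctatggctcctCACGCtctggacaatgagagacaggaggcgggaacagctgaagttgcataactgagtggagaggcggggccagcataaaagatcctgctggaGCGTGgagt
Cyp2a5: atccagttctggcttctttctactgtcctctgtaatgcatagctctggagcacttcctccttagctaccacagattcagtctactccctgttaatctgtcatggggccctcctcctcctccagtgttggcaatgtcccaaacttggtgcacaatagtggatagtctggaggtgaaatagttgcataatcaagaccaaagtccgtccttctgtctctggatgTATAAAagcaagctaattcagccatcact
Cyp1b1: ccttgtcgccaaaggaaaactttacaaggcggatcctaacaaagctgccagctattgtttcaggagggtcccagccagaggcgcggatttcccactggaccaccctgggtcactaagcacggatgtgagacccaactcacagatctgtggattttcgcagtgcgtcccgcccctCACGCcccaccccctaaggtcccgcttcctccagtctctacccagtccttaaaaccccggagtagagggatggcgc

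Cyp2f2 has neither motif in this window. Cyp2b10 has GCGTG at 9 bases upstream and, on the opposite strand, at 101. The TATAAA of Cyp2a5 lies 29 bases upstream, and the GCGTG of Cyp1b1 lies 76 bases upstream on the opposite strand. Upstream sequence was matched for 47 of the 58 members. GCGTG was found on either strand in 9 of these (19.1%) and in 28.2% of all 32851 promoters, and TATAAA on either strand in 21 (44.7%) and in 12.4% of all promoters. On the gene's own strand TATAAA was found in 15 members (31.9%) and in 7.59% of all promoters. A match is a description of letters in a window and not a bound site.

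The 4 libraries held 13017421 reads in resting control, 12780406 in exercised control, 9354501 in resting tumor and 13367942 in exercised tumor lung, recovered from the deposited values. A floor of 3 reads, the upper limit that a count of 0 allows, lay between 0.224 and 0.321 CPM (reads scaled to library totals). Hemoglobin transcripts took 14.3% of the reads in resting control, 14.2% in exercised control, 1.43% in resting tumor and 31.4% in exercised tumor lung, so plain shares of reads shift with blood. Club cell and alveolar markers were present in every library, as lung requires. Dividing cell markers summed to 569, 997, 10756 and 3228 reads, and all 10 of them were 2-fold or more higher in E(-)T(+) than in E(-)T(-), as were 20.6% of all filtered rows. The parts of blood and of dividing cells in the P450 results were not tested.

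P450 transcripts as a whole were lowest in the tumor-bearing lung without exercise. The 58 members together took 47417 reads in resting control, 43830 in exercised control, 4556 in resting tumor and 28295 in exercised tumor lung. As a share of all reads this was 0.364% (95% Wilson interval 0.361 to 0.368), 0.343% (0.340 to 0.346), 0.0487% (0.0473 to 0.0501) and 0.212% (0.209 to 0.214) in the same order. Intervals here and below cover counting error only, and PCR copies are not independent molecules. Scaled by effective library size, the sum was 8.07-fold lower in E(-)T(+) than in E(-)T(-) and 6.63-fold higher in E(+)T(+) than in E(-)T(+), while E(+)T(+) lay 1.22-fold below E(+)T(-). In exercise alone the log2 difference of the sum was -0.00 (exact 95% interval -0.02 to 0.02).

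A single gene made most of this sum in all libraries but E(-)T(+). Cyp2f2 held 77.0% of all P450 reads in resting control, 79.6% in exercised control, 47.3% in resting tumor and 75.9% in exercised tumor lung. Without it, the other 57 members fell by 1.82 on the log2 scale in tumor without exercise (3.52-fold) and rose by 1.60 in exercise with tumor (3.03-fold). With Cyp2b10 and Cyp4b1 also set aside, the remaining 55 differed by -0.80 (-0.90 to -0.70) and 0.78 (0.67 to 0.88), which is within 2-fold. Under scaling by library totals alone, a check added after seeing the data, the differences in exercise with tumor came to 2.12 for all 58, to 0.99 for the 57, just inside 2-fold, and to 0.17 for the 55. Most of the reads that separate the libraries thus belong to the 3 most abundant members.

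Of the 58 members, 26 passed the filter of a mean normalized read count of at least 4 over the 4 libraries, and 32 did not and had at most 9 reads in any library. Cyp4a32 lay just inside this limit at a mean of 4.12 and Cyp2u1 just outside at 3.33. The 26 were 1 of family Cyp1, 13 of Cyp2, 1 of Cyp3 and 11 of Cyp4, and 14 of them had a mean of at least 50. A gene expressed in 1 group alone can pass this filter by that group, so the counts over the 26 are descriptions. A difference here is one of deposited log2(normalized read count + 1) values, and a gene is said to be past the limit, or to rise or fall, at 2-fold or more.

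In tumor without exercise, E(-)T(+) against E(-)T(-), 15 of the 26 members were lower and 3 higher, with 8 within 2-fold. Over all 15164 rows that passed the filter, 25.7% were lower and 20.6% higher. The median difference over the members was -1.75, against -0.03 over all rows. With no filter, over all 58 members, 10 were higher and 19 lower and the median was 0.0105, the added members having at most 9 reads in any library. Among the 14 members with a mean of at least 50, 9 were lower and 1 was higher. Counting intervals excluded 0 for 16 of the 18 members past the limit.

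In exercise with tumor, E(+)T(+) against E(-)T(+), the members went the other way. Here 16 of 26 were higher and 2 lower, while 24.3% of all rows were higher and 17.7% lower. The median difference was 1.37 over the members and 0.01 over all rows. Under scaling by library totals alone the count was 11 higher and 3 lower, and the median was 0.77 over the members and -0.59 over all rows. With the hemoglobin genes left out of those totals, 15 members were higher and 2 lower, with a median of 1.28. With no filter, over all 58 members, 28 were higher and 12 lower and the median was 0.48. With a pseudocount of 4, 13 were higher and 0 lower, so that both downward calls, Cyp4a12b and Cyp2c55, were lost. These comparisons share the E(-)T(+) library, so an error in that library would enter both with opposite sign. Counting intervals excluded 0 for 14 of the 18 members past the limit.

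The remaining comparisons, which do not use the E(-)T(+) library, showed smaller shifts. In exercise without tumor, E(+)T(-) against E(-)T(-), 1 of 26 members was higher and 0 were lower, with 5.28% of all rows higher and 4.7% lower. That higher member, Cyp4a32, passed the filter through its level in E(+)T(-), the library in which it is high. The count of 0 lower members rests on the deposited differences alone, and counting intervals lay wholly below 0 for 7 members and wholly above 0 for 4. In tumor with exercise, E(+)T(+) against E(+)T(-), 8 were higher and 3 lower, with 14.9% of all rows higher and 13.0% lower, and the median over the members was 0.28. When the libraries were scaled by their totals alone, this last count became 3 higher and 5 lower and the median over the members turned to -0.12. The median over all rows came to -0.41 under that scaling, against -0.00 with the deposited values. With a pseudocount of 4 in place of 1, 4 members were higher.

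**Figure D1:**
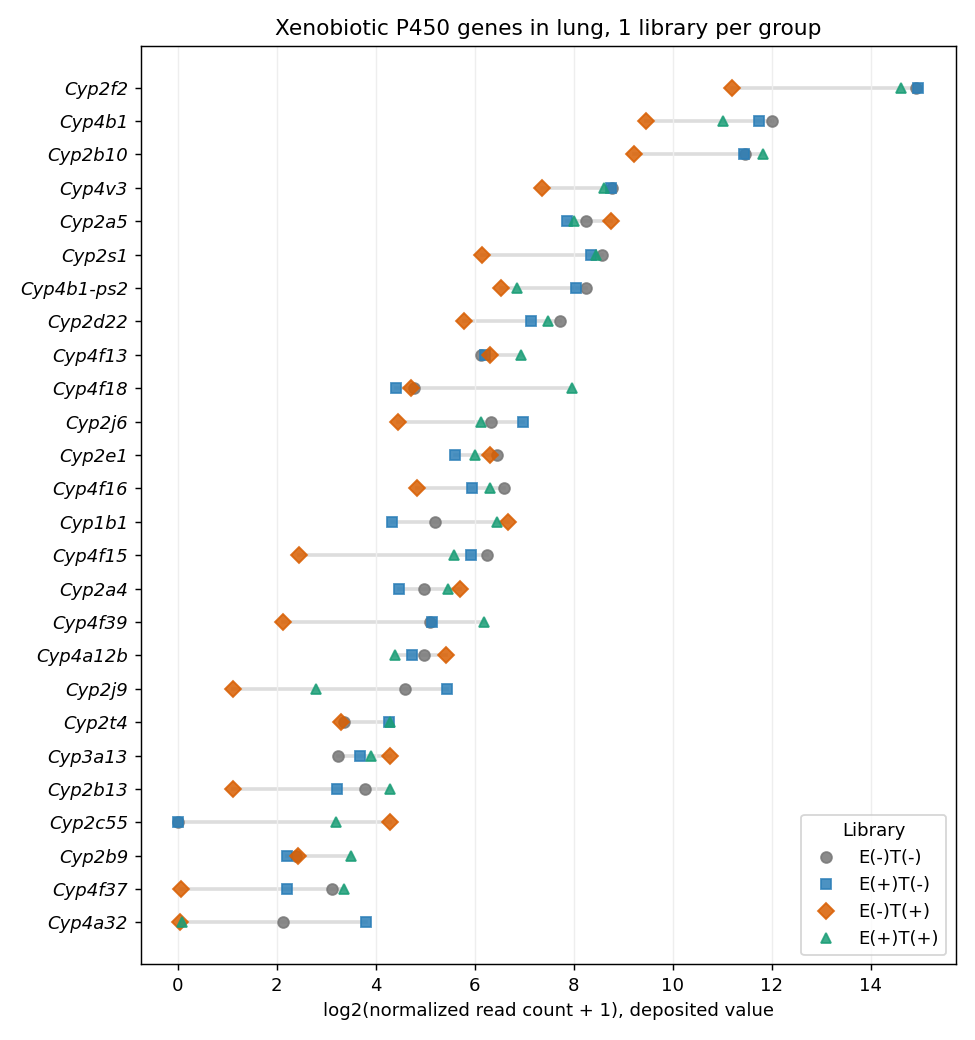
Deposited log2(normalized read count + 1) on the horizontal axis for the 26 members that passed the filter, ordered by mean level, with 1 symbol per library and a grey bar from the lowest to the highest. The E(-)T(+) symbol is at the low end for most of the abundant members, with Cyp2f2 at 11.21 there against 14.92 in E(-)T(-), while it is at the high end for Cyp2a5 and Cyp1b1.

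The airway genes came first by abundance. Cyp2f2 had 36530 reads in resting control, 34887 in exercised control, 2157 in resting tumor and 21478 in exercised tumor lung, at log2 levels of 14.92, 14.97, 11.21 and 14.62. The E(-)T(+) library stood far below the other 3. Cyp2f2 fell by 3.71 in tumor without exercise (exact 95% interval -3.78 to -3.65), a 13.1-fold loss of scaled reads. In exercise with tumor it rose by 3.41 (3.35 to 3.47), and in tumor with exercise it differed by -0.35 (-0.38 to -0.33), within 2-fold. None of the 75-base windows at the ends of its transcripts is shared with another gene, so within these windows no copy was found that could share its reads.

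Cyp2b10, known as the phenobarbital-inducible target of Car in liver, had 3305, 3023, 546 and 3094 reads. It was again low in E(-)T(+) alone, and its log2 level of 11.82 in E(+)T(+) was the highest of the 4, although its difference from the exercised control, 0.38, came to -0.03 under scaling by library totals alone. The differences were -2.23 (-2.36 to -2.10) in tumor without exercise and 2.59 (2.46 to 2.73) in exercise with tumor. Cyp4b1, which bioactivates furan toxicants in lung, had 4866, 3733, 644 and 1779 reads in the same order. The exercised tumor lung stood between the resting tumor lung and the controls. The difference was -2.55 (-2.67 to -2.43) in tumor without exercise, 1.56 (1.43 to 1.69) in exercise with tumor and -0.72 (-0.80 to -0.64) in tumor with exercise. Under scaling by library totals alone, the exercise difference came to 0.95, inside the limit, and the last one to -1.13, past it.

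Cyp2s1, an epithelial P450 that responds to Ahr, had 450, 354, 64 and 297 reads. It fell by 2.43 in tumor without exercise (-2.85 to -2.07) and rose by 2.29 in exercise with tumor (1.91 to 2.72). Cyp4b1-ps2, a pseudogene of the same chromosome 4 group as Cyp4b1, had 359, 288, 83 and 98 reads. It stayed low in both tumor libraries, with differences of -1.73 (-2.11 to -1.40) in tumor without exercise, -1.20 (-1.55 to -0.87) in tumor with exercise and 0.33 (-0.10 to 0.77) in exercise with tumor. The last of these came to -0.27 under scaling by library totals alone. Of its end windows, 23.9% are shared with Cyp4b1, so some of its reads may belong there.

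Cyp2f2 was set beside a list of 11 club cell markers, which itself did not move in 1 direction. In tumor without exercise 5 of the 11 were lower and 3 higher, with a median of -0.95, and in exercise with tumor 6 were higher and 3 lower. All marker counts here stand against 25.7% of all rows lower and 20.6% higher in tumor without exercise, and 24.3% higher and 17.7% lower in exercise with tumor. Their summed normalized count was 521200 in resting control, 617797 in exercised control, 184869 in resting tumor and 630027 in exercised tumor lung, and none was at 0 in any library. Cbr2, Aldh1a7 and Sult1d1 of this list also stand in the enzyme lists described below. The main club cell secretoglobin Scgb1a1 fell by 1.87 and the carbonyl reductase Cbr2 by 1.86 in tumor without exercise, which is less than the 3.71 of Cyp2f2. The secreted proteins Scgb3a1 and Bpifa1 went the other way, with differences of 2.51 and 4.15. All 10 ciliated cell markers and all 10 alveolar type 2 markers were lower in tumor without exercise, with medians of -1.71 and -2.49, and so were all 12 endothelial markers, with a median of -3.24. Alveolar type 1 and fibroblast markers had 7 of 10 lower and 1 higher each. Macrophage markers had 3 of 9 higher and 1 lower, with a median of 0.82. The part of cell composition in the P450 differences was not tested.

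**Figure D2:**
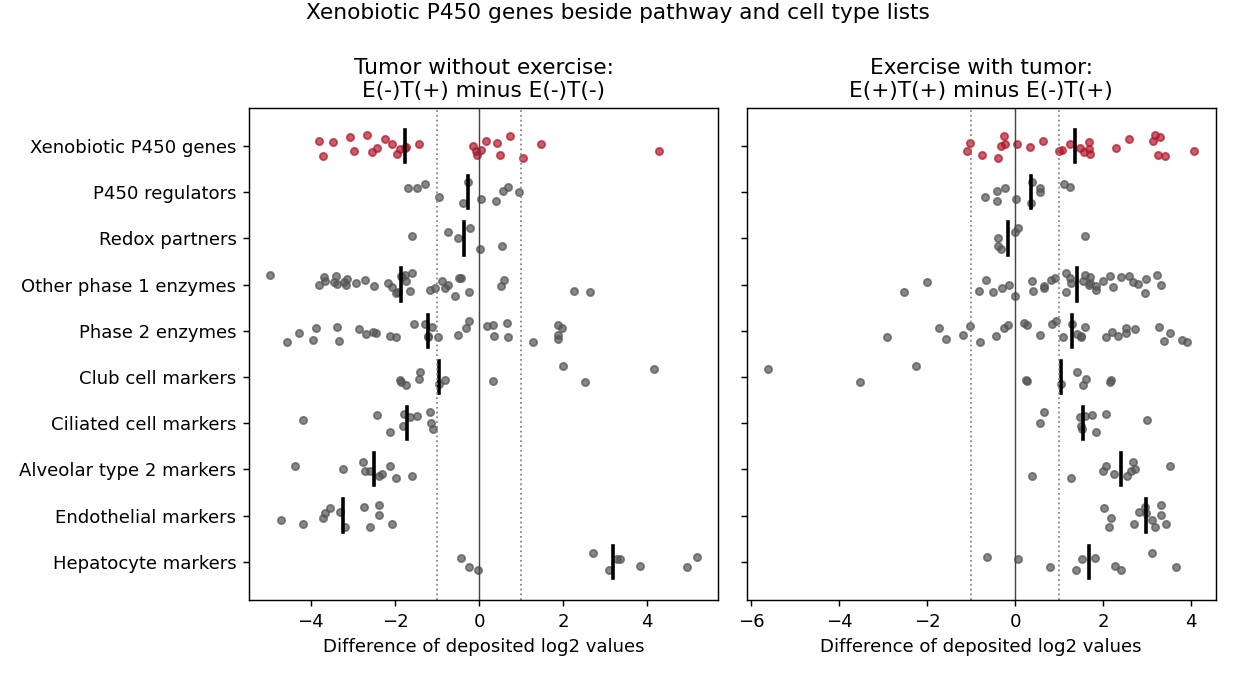
Differences of deposited log2 values (horizontal axis) for each gene of 10 lists in tumor without exercise and in exercise with tumor, with the P450 members in red, other lists in grey, black bars at the medians and dotted lines at 2-fold. The median of the P450 members was -1.75 and then 1.37, and the alveolar type 2, ciliated and endothelial lists changed in the same directions as the P450 members.

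Cyp1b1, the only member of family Cyp1 to pass the filter, did not follow the airway genes. It is an Ahr target that hydroxylates estrogens and aromatic hydrocarbons, and had 42 reads in resting control, 21 in exercised control, 92 in resting tumor and 74 in exercised tumor lung. Both tumor libraries lay above both tumor-free ones. It rose by 1.48 in tumor without exercise (0.96 to 2.06) and by 2.11 in tumor with exercise (1.45 to 2.94), and the E(+)T(+) and E(-)T(+) levels differed by -0.22 (-0.68 to 0.24). Under scaling by library totals alone that last difference came to -0.82, outside this interval but within 2-fold. Cyp1a1, the textbook Ahr target, was below the filter at 5, 0, 4 and 3 reads, and Cyp1a2 had 2 reads in E(+)T(+) and 0 elsewhere, so no difference of either was detectable at this depth. Ahr itself had 426, 196, 102 and 141 reads and fell by 1.69 in tumor without exercise (-2.02 to -1.38). In exercise without tumor it differed by -1.004 (-1.26 to -0.76), which came to -0.98 with median-of-ratios size factors, inside the limit. It was the 1 of 11 regulators lower there, where 4.7% of all rows were.

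The Cyp2a genes were not lower in E(-)T(+) either. Cyp2a5, the coumarin hydroxylase of mouse, had 359 reads in resting control, 252 in exercised control, 392 in resting tumor and 219 in exercised tumor lung. Its log2 level was highest in E(-)T(+) at 8.75, where Cyp2f2 was lowest. The differences, 0.49 (0.28 to 0.70) in tumor without exercise and -0.74 (-0.99 to -0.50) in exercise with tumor, were within 2-fold, although the latter reached -1.35 under scaling by library totals alone. Cyp2a4, a steroid hydroxylase, had 36, 23, 47 and 37 reads and differed by 0.73 (0.09 to 1.42) and -0.25 (-0.91 to 0.40). Of the end windows, 29.4% of those of Cyp2a5 and 23.7% of those of Cyp2a4 are shared, with each other and with Cyp2a21-ps. The upstream sequences of the pair are 97.61% identical over 251 aligned columns. The summed reads of the pair were 395, 275, 439 and 256, with differences of 0.52 (0.32 to 0.72) and -0.68 (-0.91 to -0.46). A split between Cyp2a4 and Cyp2a5 does not alter these sums, but one with Cyp2a21-ps could.

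Cyp2e1, which oxidizes ethanol and acetaminophen, had 102, 52, 72 and 54 reads. It stayed within 2-fold in every comparison, at -0.14 (-0.59 to 0.31) in tumor without exercise. In exercise without tumor it differed by -0.85 (-1.37 to -0.36), while its intervals in the other comparisons included 0. Cyp2d22, the closest mouse counterpart of the human drug-metabolizing Cyp2d enzyme, had 246, 152, 49 and 152 reads and followed Cyp2f2 in direction, with -1.94 (-2.43 to -1.51) in tumor without exercise and 1.71 (1.25 to 2.22) in exercise with tumor. Cyp2t4 had between 8 and 20 reads and Cyp2b9 between 4 and 9, and the intervals of both included 0 in all 4 comparisons.

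Cyp2b13 was low in E(-)T(+) alone, with 15 reads in resting control, 9 in exercised control, 1 in resting tumor and 16 in exercised tumor lung. Its difference was -2.67 in tumor without exercise with an interval of -8.94 to -0.84, which a single read sets. Cyp2b13 shares 2.11% of its end windows with the far more abundant Cyp2b10, which has the same pattern, so some or all of its reads may belong there. Cyp3a13, a Cyp3a gene best known from intestine, had 10, 13, 17 and 12 reads. It was past the limit in tumor without exercise at 1.05, but its interval of -0.08 to 2.42 included 0.

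Cyp2c55, of the subfamily that epoxidizes arachidonic acid, had the largest upward difference in tumor without exercise. Both controls had 0 reads, against 17 in resting tumor and 7 in exercised tumor lung. Cyp2c55 thus passed the filter through the tumor libraries alone, so its upward calls with tumor are descriptions only. Against a floor of 3 reads in the control library, Cyp2c55 was at least 7.31-fold higher in E(-)T(+) than in E(-)T(-). The exact interval of this difference starts at 2.41 on the log2 scale, a smaller rise than the floor gives, and has no upper end. A list of 12 hepatocyte markers moved with tumor as well, at 59, 133, 442 and 814 summed reads. Of the 10 markers tested 7 were higher and 0 lower in tumor without exercise (20.6% and 25.7% of all rows), and 5 of the 12 were at 0 in resting control, 2 in exercised control and 0 in the tumor libraries. Albumin, the defining one, had 10, 27, 72 and 178 reads. The Cyp2c55 difference between exercised and resting tumor lung was -1.09 (-2.70 to 0.16), with an interval that included 0, while the hepatocyte sum was higher in the former, and the part of hepatocyte RNA in its level was not tested.

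The epoxygenases Cyp2j6 and Cyp2j9 were both highest in E(+)T(-). Cyp2j6 had 93, 136, 19 and 59 reads. It fell by 1.87 in tumor without exercise (-2.72 to -1.20) and rose by 1.68 in exercise with tumor (0.96 to 2.56). Cyp2j9 had 27, 46, 1 and 5 reads. It stayed low in both tumor libraries, at -3.47 in tumor without exercise (-9.74 to -1.79) and -2.64 in tumor with exercise (-4.54 to -1.53).

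**Figure D3:**
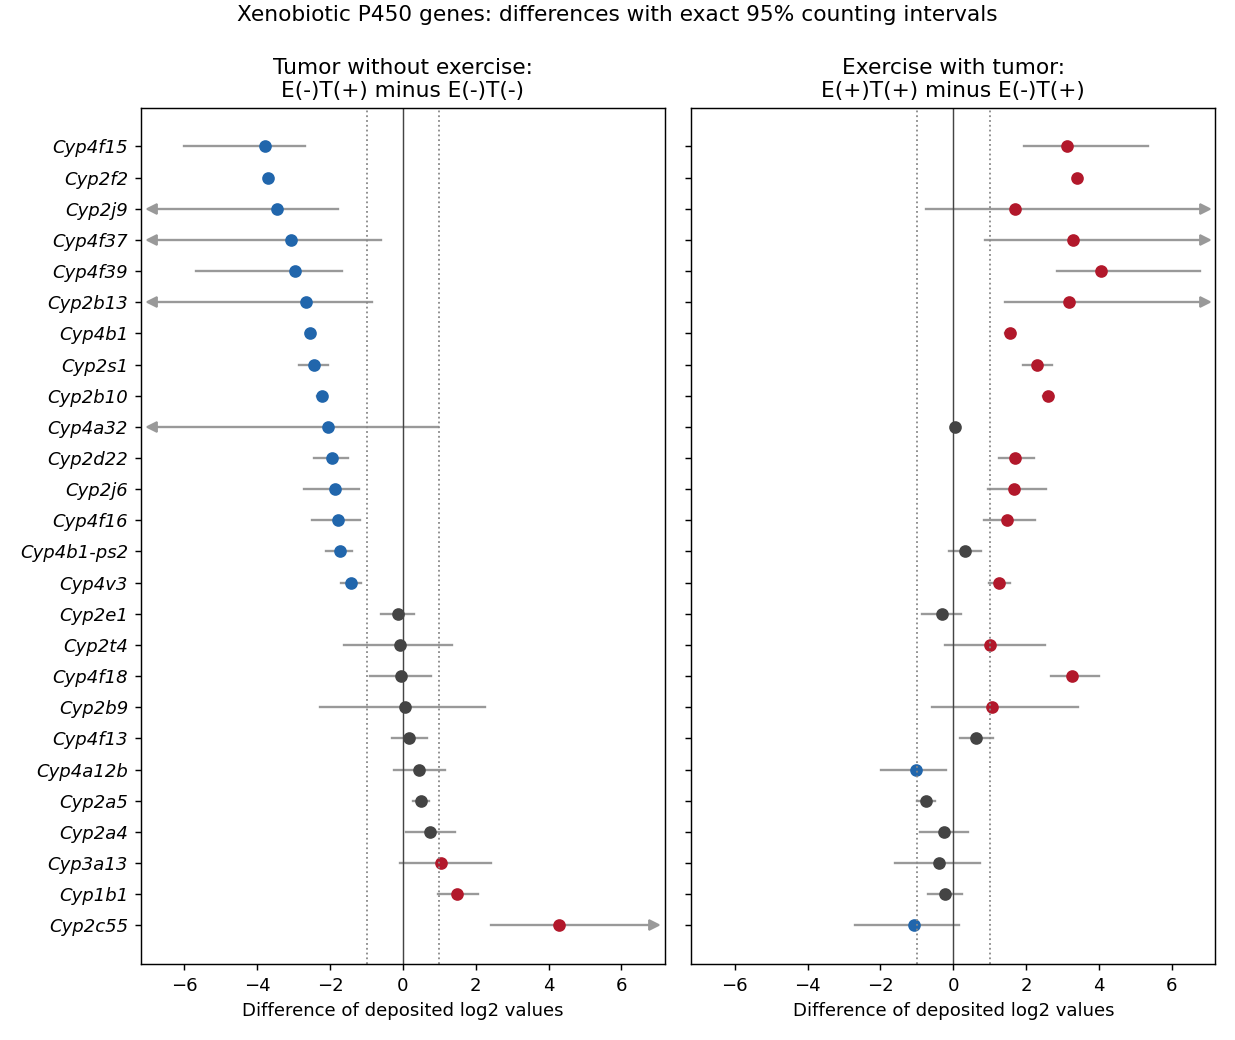
Difference of deposited log2 values (points; red at 2-fold or more higher, blue at 2-fold or more lower, black within) with the exact 95% counting interval (grey lines, arrows where it runs past the axis, none where both libraries had 0 reads) for the 26 members in tumor without exercise and in exercise with tumor. Cyp4f15, Cyp2f2 and Cyp2j9 are at the low end on the left, at -3.80, -3.71 and -3.47, and Cyp4f18 is at 3.25 on the right but at -0.05 on the left.

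Within family Cyp4, the Cyp4f genes, whose enzymes hydroxylate leukotrienes and long fatty acids, divided into several patterns. Cyp4f15 had 88 reads in resting control, 65 in exercised control, 4 in resting tumor and 40 in exercised tumor lung. It was lowest in E(-)T(+), with differences of -3.80 (-6.00 to -2.69) in tumor without exercise and 3.13 (1.95 to 5.36) in exercise with tumor. Cyp4f39, which acts on very long fatty acids of the skin barrier, had 39, 37, 3 and 62 reads and differed by -2.97 (-5.67 to -1.68) and 4.07 (2.85 to 6.78). Cyp4f16 had 113, 66, 25 and 67 reads and differed by -1.77 (-2.50 to -1.17) and 1.48 (0.83 to 2.24), the latter coming to 0.89 under scaling by library totals alone. Of its end windows 12.1% are shared with Cyp4f37, Cyp4f17 and Cyp4f14, so reads may be split among them. Cyp4f15, Cyp4f39 and Cyp4f16 were all lowest in E(-)T(+).

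Cyp4f37 had 9, 4, 0 and 8 reads. Set against a floor of 3 reads, it was at least 2.33-fold lower in E(-)T(+) than in E(-)T(-). The exact interval of that difference has no lower end and reaches up to -0.61 on the log2 scale, a smaller fall than the floor gives. Cyp4f13 had 81, 80, 71 and 104 reads and stayed within 2-fold throughout, from 0.09 in exercise without tumor to 0.72 in tumor with exercise.

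Cyp4f18, which hydroxylates leukotriene B4 in neutrophils, stood apart from the other members that passed the filter. Its reads were 31 in resting control, 22 in exercised control, 23 in resting tumor and 214 in exercised tumor lung. Only the E(+)T(+) library was high. The difference was 3.25 (2.69 to 4.00) in exercise with tumor and 3.57 (2.99 to 4.33) in tumor with exercise, against -0.05 (-0.91 to 0.76) in tumor without exercise and -0.36 (-1.24 to 0.45) in exercise without tumor. Erythroid markers were also highest in that library: all 8 tested were past the limit upward in exercise with tumor and in tumor with exercise (24.3% and 14.9% of all rows), and their summed reads ran from 108538 in E(-)T(+) to 3299544 in E(+)T(+). The part of blood cells in the Cyp4f18 level was not tested. Its gene lies on chromosome 8, apart from the other Cyp4f genes.

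Cyp4v3, a fatty acid hydroxylase related to the human gene of a retinal crystal disease, had 515, 471, 149 and 334 reads. It fell by 1.42 (-1.70 to -1.16) in tumor without exercise and rose by 1.25 (0.98 to 1.55) in exercise with tumor, or by 0.65 under scaling by library totals alone. The Cyp4a genes, known as Ppara targets, were low. Cyp4a12b had 36, 28, 38 and 17 reads and differed by 0.43 (-0.25 to 1.14) and -1.02 (-1.98 to -0.21), and 32.6% of its end windows are shared with Cyp4a12a. Cyp4a32 had 4, 14, 0 and 0 reads and was the 1 member past the limit in exercise without tumor, at 1.68 (0.25 to 3.98), with 43.7% of its end windows shared with Cyp4a10 and Cyp4a31. Its mean of 4.12 passed the filter through a normalized count of 13.0 in E(+)T(-), the library that makes this rise, so the call is a description only.

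The 32 members below the filter include most Cyp2c, Cyp2d and Cyp3a genes, whose main site is the liver. Of all 58 members, 16 had reads in 1 library only, and 25 had reads in all 4. The number with any read was 38 in resting control, 37 in exercised control, 39 in resting tumor and 41 in exercised tumor lung. Cyp2c44 had 7, 5, 0 and 0 reads and Cyp2d9 had 0, 0, 1 and 7, both picked out here after their values were seen. Counting intervals excluded 0 for between 1 and 4 of the 32 in a comparison.

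Many members lie beside each other in the genome, 57 of the 58 having a position in GENCODE M21 (GRCm38) on 9 chromosomes. The largest group, with 11 members from 25802475 to 27158668 on chromosome 7, holds Cyp2f2, Cyp2b10, Cyp2s1 and the Cyp2a genes. Neighbours in it differed: Cyp2s1, Cyp2b10, Cyp2b13 and Cyp2f2 were lower in tumor without exercise, and Cyp2b9, Cyp2a4, Cyp2a5 and Cyp2t4 were within 2-fold. In exercise with tumor 6 of these 8 were higher. In the chromosome 17 group of Cyp4f genes, 4 of 5 tested members were lower in tumor without exercise and 4 higher in exercise with tumor, all but Cyp4f13. Over all rows 25.7% were lower in the former comparison and 24.3% higher in the latter.

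**Figure D4:**
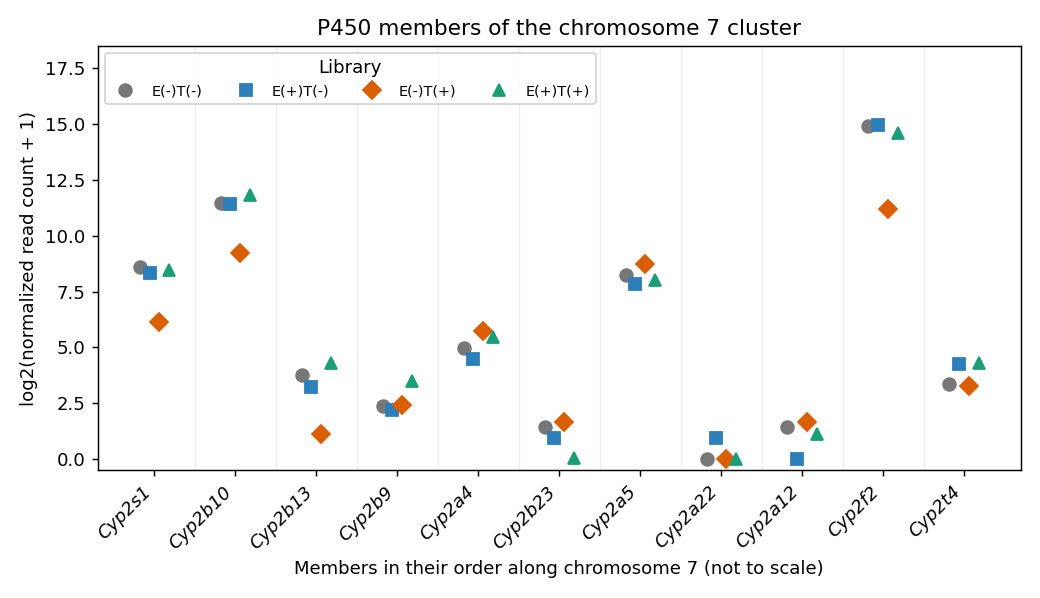
Deposited log2(normalized read count + 1) on the vertical axis for the 11 members of the chromosome 7 group in gene order, not to scale, with 1 symbol per library. The E(-)T(+) symbol is lowest of the 4 for Cyp2s1, Cyp2b10, Cyp2b13, Cyp2f2 and, narrowly, Cyp2t4, and highest for Cyp2a4, Cyp2a5 and the members below the filter Cyp2a12 and Cyp2b23.

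The promoter letters were compared with these directions for the 23 tested members that had an upstream sequence. Over all rows 25.7% were lower and 20.6% higher in tumor without exercise, and the groups of members are too small to be compared with each other. Of the 6 with GCGTG, 5 were lower in tumor without exercise and 1, Cyp1b1, was higher, while of the 17 without it 8 were lower and 2 higher. Of the 4 with TATAAA on their own strand, which are Cyp2a4, Cyp2a5, Cyp2c55 and Cyp2e1, 0 were lower and 1 was higher, and of the 19 without it 13 were lower and 2 higher. Cyp4a32 holds TATAAA 113 bases upstream on the opposite strand. It was called lower at 0 reads against 4, with an interval that has no lower end, reaches up to 0.97 and so includes 0. TATAAA was searched after the values were known, and members of a subfamily share sequence, so these counts are not independent.

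The partners of the P450 enzymes were read from lists of the same pathway. Of 15 listed regulators, 11 passed the filter and were tested. The receptors Car (Nr1i3), at 1, 0, 0 and 1 reads, and Pxr (Nr1i2), at 3, 3, 5 and 2 reads, were below it. Among the 11, 0 were higher and 3 lower in tumor without exercise, with a median of -0.26. In exercise with tumor 2 were higher and 0 lower. The 3 of 11 are near the 25.7% of all rows that were lower, and the 2 of 11 are no more than the 24.3% that were higher. The 3 most abundant were Keap1 (0.41 in tumor without exercise), Nfe2l2 (-0.94) and Tiparp (0.96), all within 2-fold in that comparison. In tumor with exercise 2 of the 11 were higher and 2 lower, where 14.9% of all rows were higher and 13.0% lower. Nfe2l2 differed there by -1.66 and Tiparp by 1.12, both past 2-fold, and Keap1 by 0.16. Of 6 electron donors and bound proteins, 1 was lower in tumor without exercise and the same 1 higher in exercise with tumor. That gene was Cyb5a, the microsomal cytochrome b5, at 4796, 5160, 1228 and 3459 reads and differences of -1.60 and 1.59. Por, the reductase that feeds every microsomal P450, had 2399, 1881, 2726 and 1951 reads and differed by 0.55 and -0.39, and Cyb5r3 by 0.03 and -0.31.

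Other enzymes of the same pathway are read here against the 25.7% of all rows that were lower in tumor without exercise and the 24.3% that were higher in exercise with tumor. In the opposite directions, 20.6% of all rows were higher in tumor without exercise and 17.7% lower in exercise with tumor. Of 36 tested phase 1 enzymes outside the P450 genes, 25 were lower and 2 higher in tumor without exercise, with a median of -1.85, and 22 were higher and 2 lower in exercise with tumor, with a median of 1.41. The most abundant were Cbr2 and the aldehyde dehydrogenases Aldh1a1 and Aldh2, at -1.86, -1.93 and -2.06 in tumor without exercise and 2.17, 1.15 and 2.23 in exercise with tumor. Of 31 tested conjugating (phase 2) enzymes, 17 were lower and 5 higher in tumor without exercise, with a median of -1.20, and 17 were higher and 5 lower in exercise with tumor. The most abundant were the methyltransferase Inmt (-4.57 and 3.91), also one of the fibroblast markers, and the glutathione transferases Gstm1 (-2.52 and 2.20) and Gsta3 (-3.38 and 3.26). In exercise without tumor, 0 of the 36 and 0 of the 31 were higher, and 1 and 3 were lower, where 5.28% of all rows were higher and 4.7% lower.

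Every P450 carries heme, and 11 genes that make or break down heme were tested. In tumor without exercise 3 were lower and 1 was higher, the heme-degrading Hmox1 at 3.08, and the 3 of 11 are again near the 25.7% of all rows. In exercise with tumor 6 were higher and 0 lower, where 24.3% of all rows were higher, and the 6 included Hmox2 (1.06), which also degrades heme. Of the 8 erythroid markers tested, 7 were lower in tumor without exercise (median -3.11) and 8 higher in exercise with tumor (median 5.12), with Alas2 counted in both lists, and their part in the heme gene differences was not tested. Alas1, the first enzyme outside red cells, had 2316, 3019, 784 and 1824 reads and differed by -1.20 and 1.31, while the red cell form Alas2 differed by -3.15 and 5.12 and Fech by -0.59 and 2.54. P450 symbols that the pattern left out, mostly of the sterol, retinoid and bile acid families, numbered 20, with 9 tested. In tumor without exercise 4 of the 9 were higher and 3 lower, where 20.6% of all rows were higher and 25.7% lower. The most abundant were the sterol demethylase Cyp51 (1.85 in tumor without exercise), the retinoic acid hydroxylase Cyp26b1 (2.40) and the sterol hydroxylase Cyp27a1 (-1.52). Their summed reads, 941, 1045, 2224 and 986, were highest in E(-)T(+), where those of the 58 members were lowest.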

How the data were processed

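The authors made QuantSeq libraries of lung RNA, in which priming starts from the poly(A) tail, so that reads mark transcript ends and transcript length has little weight. Per the labels the build was mm10 and the tools were Bowtie2 and bedtools; versions are not given in the sources used here. The deposited values are log2 of the normalized read count plus 1, made by the authors with the quantile normalization of edgeR, at 3 decimals. Use of strand was not given, so overlapping, antisense and near-identical genes may share reads.

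Whole reads were recovered by inverting that normalization (dispersion 0.372, fitted to 12 patterns of low values). Reads put back through it gave 100% of values within 0.001, and the step was tested on simulated data. Depth was 9354501 to 13367942 reads per library, which sets what the floor of 3 reads is in CPM and the width of each counting interval. Differences are of deposited values, with a limit of 2-fold and a filter at a mean normalized count of 4. Exact (Clopper-Pearson) 95% intervals are of the read ratio, scaled by effective library sizes. With 1 library per group no test across genes was run. The planned protein motif search was not run. Python 3.11.15, numpy 2.4.6, pandas 2.3.3, scipy 1.17.1 and matplotlib 3.10.9 were used. Alternatives changed the pseudocount, filter, scaling and limit, and left out members that share end windows (75 bases, within 500 of the end).

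Members, gene and marker lists were chosen with earlier results of these data known. Members were named if their mean was at least 50, if they were among the 3 largest rises or falls of a comparison, or if they were Cyp1a1, Cyp1b1, Cyp2f2, Cyp2e1, Cyp2b10, Cyp2s1, Cyp4b1 or Cyp3a13, and each pathway list by its 3 most abundant genes. Ahr, Por, Cyp2a4, Cyp2b9, Cyp2b13 and further genes outside this rule were added after their values were seen.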

Additional observations from a re-analysis of the deposited data

Results flagged for a closer look

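For 3 of the 26 members that passed the filter, the tumor difference had opposite signs and was past 2-fold both without and with exercise. Over all 15164 filtered rows, 1.93% were likewise lower without and higher with exercise, and 1.02% were higher without and lower with exercise. Cyp4f39 differed by -2.97 without exercise and by 1.07 with exercise (exact 95% interval 0.48 to 1.72), Cyp4f37 by -3.06 and 1.14 (-0.55 to 3.53), and Cyp2b13 by -2.67 and 1.08 (-0.09 to 2.54). The intervals with exercise included 0 for Cyp4f37 and Cyp2b13. With 1 library per group the differences between these effects were not tested. In E(-)T(+) the reads were 3, 0 and 1. Cyp2b13 shares 2.11% of its end windows with Cyp2b10, and part of its reads may belong there. Under scaling by library totals alone, the difference with exercise came to 0.66 for Cyp4f39, 0.78 for Cyp4f37 and 0.70 for Cyp2b13, all inside 2-fold.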

How the results depend on the processing

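No paired analysis was possible because each group is 1 library, and for the same reason no replicate could be left out. Of 480 differences of named members under the alternatives, 430 stayed on their side of the limit within the counting interval, 29 moved further than that, 18 came inside the limit and 3 went past it. The sign changed for 19 of them, 13 under scaling by library totals alone. None of these was past 2-fold with the deposited values, where they reached at most 0.40 in size. Scaling by library totals alone brought the median of all rows to -0.59 in exercise with tumor and to -0.41 in tumor with exercise. With the deposited values these medians were 0.01 and -0.00. In tumor with exercise this scaling gave 3 members higher and 5 lower in place of 8 and 3. In exercise with tumor it gave 11 higher and 3 lower in place of 16 and 2, with a median of 0.77 in place of 1.37. With the hemoglobin genes left out of the totals, exercise with tumor had 15 members higher and 2 lower, with a median of 1.28. Tumor with exercise then had 6 higher and 3 lower, with a median of 0.20. The medians of all rows under that scaling were -0.08 and -0.09.

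With a pseudocount of 4, exercise with tumor had 0 members lower and tumor with exercise 4 higher. With no filter, over 58 members, exercise without tumor had 5 higher and 6 lower, tumor without exercise 10 higher, exercise with tumor 28 higher and 12 lower, and tumor with exercise 23 higher and 7 lower, and the median in tumor without exercise turned to 0.0105. The cause was not tested, but the added members have at most 9 reads in a library. With a mean of at least 50, over 14 members, exercise without tumor had 0 higher, tumor without exercise 1 higher and 9 lower, exercise with tumor 9 higher and 0 lower, and tumor with exercise 2 higher and 1 lower. A limit of 1.5-fold gave 4 higher and 4 lower in exercise without tumor and 5 lower in tumor with exercise. A limit of 4-fold gave 0 higher in exercise without tumor, 1 higher in tumor without exercise, 8 higher and 0 lower in exercise with tumor and 3 higher in tumor with exercise. Without members that share end windows, an alternative chosen after seeing the data that leaves 15, exercise without tumor had 0 higher, tumor without exercise 8 lower, exercise with tumor 1 lower and tumor with exercise 1 lower. For the counts under these alternatives, here and above, no share of all rows at the same setting was computed. They describe the members alone and cannot be set against a background. Depth limits the members with few reads, above all Cyp2b13 and Cyp2j9, which had 1 read in E(-)T(+).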
